A study of Mus musculus with 19 samples.

Results

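Stat2, Irf7, Irf9, Isg15, Usp18, Ifit1, Ifit3, Rsad2 and Bst2, which are signalling factors and core effectors of the interferon response, were followed through 3 thymocyte populations from Rptor-/- and WT mice. Each of these 9 genes was read by 1 probe set whose annotation names that gene alone, so all 9 were found among 22180 genes measured on 19 arrays, and none was lost to a filter. Rptor encodes Raptor, the subunit that defines the kinase complex mTORC1. The Rptor-/- cells, so named by the genotype label and titled Raptorfl/fl, came from C57BL/6 mice in which a floxed Raptor allele was combined with CD2-cre, a transgene active in lymphocytes, and the WT cells from C57BL/6 mice labelled WT, for which the labels state no Cre or floxed allele. Ages, pooling of animals and the origin of replicates are not stated. The p-values therefore set differences between groups against the spread of arrays within groups, and that spread may be technical. There were 3 Rptor-/- and 4 WT arrays of immature single-positive (ISP) thymocytes, sorted as CD8-positive cells without CD4 or TCRβ; 3 Rptor-/- and 3 WT arrays of γδ T cells, sorted as cells without CD4, CD8, TCRβ, NK1.1 or Gr1, with no γδ receptor marker in the listed gate; and 3 Rptor-/- and 3 WT arrays of DN3a cells, sorted as CD25-high thymocytes lacking CD44, CD28 and both T-cell receptor types.

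Type I interferons bind a receptor of IFNAR1 and IFNAR2 and activate the kinases JAK1 and TYK2, which phosphorylate STAT2. STAT2 acts with IRF9 in the complex ISGF3, which binds interferon-stimulated response elements (ISREs) in promoters of its target genes. Stat2 and Irf9 encode components of ISGF3, Irf7 a factor that amplifies interferon production, Isg15 a ubiquitin-like modifier, Usp18 the protease that removes ISG15 from proteins and also restrains the receptor, Ifit1 and Ifit3 proteins that act on foreign RNA, Rsad2 the antiviral enzyme viperin, and Bst2 tetherin, which holds virus particles at the cell surface. In the thymus, low tonic interferon signalling is known to act on developing T cells, and Bst2 is also used as a surface marker of plasmacytoid dendritic cells.

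Promoter windows from RefSeq (mouse build GRCm38.p6), running from 250 bases before to 50 bases after an annotated gene start, were matched for 8 of the 9 genes, all but Usp18. They are shown for 4 genes whose values differ in kind: Isg15, which was higher in Rptor-/- cells of more than 1 population, Ifit1, which stood high in WT γδ T cells, Irf7, which was called in γδ T cells, and Bst2, which ran the other way between WT populations. Capitals mark each match to the ISRE core, a pair of GAAA separated by any 2 bases, or on the other strand a pair of TTTC separated by any 2 bases, and overlapping matches run together. The windows are chr4:156200769-156201068 (minus strand) for Isg15, chr19:34640639-34640938 (plus strand) for Ifit1, chr7:141266375-141266674 (minus strand) for Irf7 and chr8:71537423-71537722 (minus strand) for Bst2, each written 5′ to 3′ on the gene's strand.
Isg15: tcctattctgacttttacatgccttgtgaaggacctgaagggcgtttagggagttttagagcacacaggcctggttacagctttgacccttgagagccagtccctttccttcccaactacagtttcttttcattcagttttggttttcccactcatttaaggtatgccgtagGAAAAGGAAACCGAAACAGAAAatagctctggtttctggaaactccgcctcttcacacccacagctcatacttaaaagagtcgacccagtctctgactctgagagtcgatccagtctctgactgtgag
Ifit1: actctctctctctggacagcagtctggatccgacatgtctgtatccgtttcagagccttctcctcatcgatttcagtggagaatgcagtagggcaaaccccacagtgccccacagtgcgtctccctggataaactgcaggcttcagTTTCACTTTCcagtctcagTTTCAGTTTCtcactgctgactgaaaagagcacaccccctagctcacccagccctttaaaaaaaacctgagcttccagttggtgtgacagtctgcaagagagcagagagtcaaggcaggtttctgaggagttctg
Irf7: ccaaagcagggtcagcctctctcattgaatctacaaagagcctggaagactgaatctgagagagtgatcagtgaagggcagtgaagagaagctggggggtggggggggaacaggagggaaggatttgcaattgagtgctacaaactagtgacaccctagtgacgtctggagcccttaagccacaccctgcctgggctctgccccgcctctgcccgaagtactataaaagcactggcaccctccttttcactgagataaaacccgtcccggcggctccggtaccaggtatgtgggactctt
Bst2: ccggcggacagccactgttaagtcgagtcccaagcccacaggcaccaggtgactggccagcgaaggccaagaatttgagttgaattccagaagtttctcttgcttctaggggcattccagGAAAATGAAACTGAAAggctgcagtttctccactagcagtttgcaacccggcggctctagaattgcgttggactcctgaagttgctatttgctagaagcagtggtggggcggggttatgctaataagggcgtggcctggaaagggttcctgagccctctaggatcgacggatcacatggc

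The ISRE core occurred in the windows of 6 of these 8 genes, Stat2, Isg15, Ifit1, Ifit3, Rsad2 and Bst2, and in 3.99% of the 27025 genes with a window. Isg15 held 3 overlapping matches between bases -78 and -57 from its start, Ifit1 a match at -104 to -95 and another at -85 to -76, and Bst2 a pair of overlapping matches between -130 and -115. Irf7 and Irf9 held none of these letters in the windows searched. A match describes the sequence and is not a measured binding site.

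The arrays fell into 2 sets. The median log2 value lay between 3.80 and 3.88 for ISP samples (7 arrays) and between 6.03 and 6.13 for γδ and DN3a samples (12 arrays), and ISP levels were therefore set against ISP levels alone. Pairs of ISP arrays within a group shared 2278 to 2989 identical probe set values, against 1 to 8 in the other set. Ties also crossed genotype in ISP cells, as for Rptor (6.3364) and Irf7 (5.8244). Their source was not tested. Rptor read 6.06 to 6.34 on Rptor-/- and 6.34 to 6.49 on WT ISP arrays, where the groups met at their edge, 9.55 to 9.75 on Rptor-/- and 10.16 to 10.34 on WT DN3a arrays, and 9.40 to 9.52 on Rptor-/- and 9.74 to 9.79 on WT γδ arrays. It was lower in all 3, at 0.84 (ISP), 0.67 (DN3a) and 0.81 (γδ) of its WT level by limma, so Rptor signal was still read on the Rptor-/- arrays. Where its probe set lies relative to the deleted part was not known here. All 7 measured DN3a markers were lower and 6 of 7 measured γδ markers were higher in WT γδ T cells than in WT DN3a cells, and the CD8 chain genes Cd8a and Cd8b1 averaged 11.3 and 10.6 on WT ISP arrays. The constant-region genes of the γδ receptor were not analysed here. Every value below is a log2 expression value, differences are Rptor-/- minus WT or γδ minus DN3a, and a gene is said to rise or fall where limma's adjusted p over all 22180 genes was below 0.05. The number of arrays limits the precision. In bulk RNA, a change in how many cells express a gene and a change in RNA per cell cannot be told apart.

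In ISP thymocytes, Usp18, Isg15 and Irf9 rose in Rptor-/- cells, by 1.64-fold, 1.35-fold and 1.48-fold, and none of the 9 genes fell. Thus 3 of 9 were called higher, against 5.87% of all genes, and the median difference of the 9 was 0.24, against -0.0039 over all genes. Rptor-/- and WT values did not overlap, with Rptor-/- higher, for 3 of the 9 genes (Isg15, Usp18 and Rsad2), against 7.75% of all genes, and with Rptor-/- lower for 1 (Bst2), against 8.95%.

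Irf9 read 5.83, 5.75 and 5.47 on the Rptor-/- ISP arrays and 5.46, 4.71, 4.72 and 5.58 on the WT ISP arrays. Of the WT arrays only replicate 4 lay within the Rptor-/- range. WT replicate 1 lay just below that range, and WT replicates 2 and 3 lay well below every other array. The difference was 0.56 (SE 0.17, limma adjusted p = 0.035). Irf7, the amplifier of interferon production, read 5.82, 6.10 and 6.02 in Rptor-/- against 5.82, 5.69, 5.82 and 5.64 in WT, a difference of 0.24 (SE 0.13, limma adjusted p = 0.32), and its groups met at 5.82. Stat2, which spanned 5.96 to 6.33 in Rptor-/- and 5.74 to 6.25 in WT, differed by 0.12 (95% interval -0.091 to 0.34), with overlapping groups.

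Among the effectors, Usp18 read 6.37, 6.47 and 6.96 in Rptor-/- ISP cells and 5.56, 5.99, 5.98 and 6.04 in WT ISP cells. All Rptor-/- arrays stood above all WT arrays, and WT replicate 1 lay below the other 3. The difference was 0.71 (SE 0.14, limma adjusted p = 0.0012). Isg15 read 6.01, 6.13 and 6.07 in Rptor-/- against 5.46, 5.69, 5.65 and 5.77 in WT, again without overlap, a difference of 0.43 (SE 0.11, limma adjusted p = 0.012). Rsad2 read 3.76, 3.88 and 3.91 in Rptor-/- against 3.68, 3.31, 3.58 and 3.68 in WT and differed by 0.29 (SE 0.13, limma adjusted p = 0.19). It was dim, with a mean of 3.69 over the ISP arrays, whose medians were 3.80 to 3.88, so its separation rests on a weak signal. Bst2 went the other way, with 8.32, 8.47 and 8.58 in Rptor-/- against 8.61, 8.70, 8.79 and 8.67 in WT, and its difference of -0.23 (SE 0.086) did not pass (limma adjusted p = 0.093). Ifit1 spanned 4.81 to 5.13 in Rptor-/- and 4.48 to 4.92 in WT and differed by 0.23 (95% interval -0.098 to 0.55). Ifit3 spanned 5.79 to 6.15 in Rptor-/- and 5.53 to 6.56 in WT, so the Rptor-/- range lay inside the WT range, and differed by -0.066 (95% interval -0.45 to 0.31).

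When the 7 ISP arrays were fitted alone, the adjusted p became 0.065 for Usp18 and 0.28 for Irf9, and of the 9 genes Isg15 alone stayed past the threshold. The Irf9 call was also lost with quantile normalization (0.48, adjusted p = 0.079) and without Rptor-/- replicate 1 (difference 0.49) or 2 (0.53) or WT replicate 2 (0.43) or 3 (0.43), and the Isg15 call without Rptor-/- replicate 2 (0.40). The mean of 7 DN3a marker genes ranged from 7.68 to 7.70 on Rptor-/- and from 6.97 to 7.18 on WT ISP arrays, with 5 of 7 called higher and 1 lower, and its part in the member differences was not tested.

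**Figure D1:**
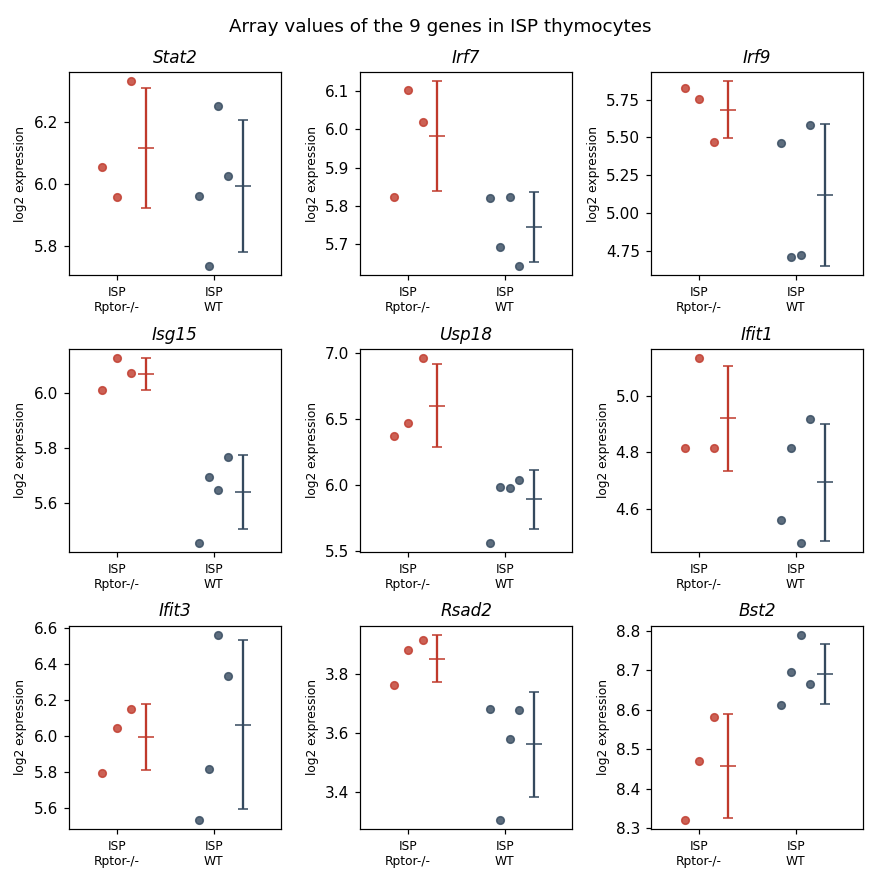
Log2 expression of the 9 genes on each ISP array (points), with the group mean and SD beside them; Rptor-/- is drawn left of WT and each panel has its own vertical axis. Usp18 and Isg15 show no overlap between 3 Rptor-/- and 4 WT arrays, and in Irf9 the WT arrays split into a pair at 5.46 and 5.58 and a pair at 4.71 and 4.72.

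In DN3a thymocytes, Isg15 rose by 1.48-fold and Usp18 by 1.58-fold in Rptor-/- cells, and none of the 9 genes fell. These 2 of 9 genes compare with 0.712% of all genes called higher in DN3a cells, and the median difference of the 9 genes was 0.44, against 0.011 over all genes. Irf7, Irf9 and Ifit1 also had every Rptor-/- array above every WT array but did not pass, so groups were apart with Rptor-/- higher for 5 of 9 genes, against 10.4% of all genes, and with Rptor-/- lower for none of the 9, against 6.74%.

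Isg15 read 8.88, 8.96 and 9.46 in Rptor-/- DN3a cells and 8.54, 8.56 and 8.50 in WT DN3a cells. The WT arrays lay close together below all Rptor-/- arrays, of which replicate 3 was the highest. The difference was 0.57 (SE 0.12, limma adjusted p = 0.018). Usp18 read 8.36, 8.75 and 8.67 in Rptor-/- against 7.96, 8.11 and 7.74 in WT, a difference of 0.66 (SE 0.15, limma adjusted p = 0.029). Again every Rptor-/- array stood above every WT array, with Rptor-/- replicate 1 and WT replicate 2 nearest each other.

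Ifit1 read 7.60, 7.81 and 8.37 in Rptor-/- DN3a cells and 7.35, 7.45 and 7.14 in WT DN3a cells, a difference of 0.62 (SE 0.17, limma adjusted p = 0.098). As for Isg15, replicate 3 was the highest Rptor-/- array. Irf7 read 8.0, 7.89 and 8.20 in Rptor-/- against 7.79, 7.69 and 7.31 in WT and differed by 0.44 (SE 0.14, limma adjusted p = 0.18). The ISGF3 component Irf9 read 9.41, 9.51 and 9.59 in Rptor-/- against 9.22, 8.97 and 8.81 in WT, a difference of 0.51 (SE 0.18, limma adjusted p = 0.28). For both transcription factors WT replicate 3 was the lowest array.

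The remaining members overlapped between genotypes in DN3a cells. Rsad2, which encodes viperin, read 7.29, 7.67 and 7.82 in Rptor-/- and 7.58, 7.30 and 7.07 in WT. Bst2 was near level on all 6 arrays, at 11.48 to 11.69 in Rptor-/- and 11.61 to 11.71 in WT. Rsad2 differed by 0.28 (95% interval -0.015 to 0.57), Stat2 by 0.085 (-0.14 to 0.31), Ifit3 by 0.0056 (-0.40 to 0.41) and Bst2 by -0.051 (-0.24 to 0.14).

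The Isg15 call was lost without Rptor-/- replicate 3 (0.39) or WT replicate 1 (0.57), 2 (0.58) or 3 (0.55), the Usp18 call without Rptor-/- replicate 2 (0.58) or 3 (0.62) or WT replicate 1 (0.67) or 3 (0.56), and Ifit1 passed without Rptor-/- replicate 1 (0.78) but was 0.39 without Rptor-/- replicate 3 (adjusted p = 0.30); with the 6 DN3a arrays fitted alone no member passed (adjusted p = 0.12 for Isg15 and 0.052 for Usp18), whereas with the 12 DN3a and γδ arrays Irf9 passed as well (adjusted p = 0.033). The mean of the 7 DN3a marker genes also differed by genotype, at 10.78 to 10.82 on Rptor-/- and 10.27 to 10.32 on WT DN3a arrays, with 2 of 7 called higher and none lower; its part was not tested.

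In γδ T cells, Irf7 rose by 1.48-fold in Rptor-/- cells and none of the 9 genes fell. This was 1 of 9 genes, against 1.77% of all genes called higher. For 7 of 9 genes (Stat2, Irf7, Irf9, Isg15, Usp18, Ifit1 and Bst2) every Rptor-/- array lay above every WT array, which held for 12.2% of all genes, and for 1, Ifit3, every Rptor-/- array lay below, which held for 8.78%. The median difference of the 9 was 0.25, against 0.0042 over all genes.

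Irf7 read 9.35, 9.71 and 9.67 in Rptor-/- γδ T cells and 9.24, 9.05 and 8.72 in WT γδ T cells. Every Rptor-/- array was above every WT array, and the difference was 0.57 (SE 0.14, limma adjusted p = 0.030). Ifit1 read 8.51, 8.81 and 8.84 in Rptor-/- against 8.28, 8.29 and 7.98 in WT, with a difference of 0.54 (SE 0.17, limma adjusted p = 0.087). Bst2 read 10.71, 10.64 and 10.66 in Rptor-/- against 10.51, 10.37 and 10.14 in WT, with a difference of 0.33 (SE 0.092, limma adjusted p = 0.055). In all 3 genes WT replicate 3 was the lowest array.

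Usp18 read 10.35, 10.25 and 10.31 in Rptor-/- γδ T cells and 9.98, 10.06 and 9.99 in WT γδ T cells, a difference of 0.30 (SE 0.15, limma adjusted p = 0.32). Its γδ groups did not overlap, with SDs of 0.051 in Rptor-/- and 0.042 in WT, while the error of the test is drawn from the spread within all 6 groups, which reached an SD of 0.32 in Rptor-/- ISP cells. Stat2 read 9.67, 9.72 and 9.67 in Rptor-/- γδ T cells against 9.47, 9.36 and 9.48 in WT, a difference of 0.25 (SE 0.11, limma adjusted p = 0.25). Its partner in ISGF3, Irf9, read 9.91, 10.01 and 9.89 in Rptor-/- against 9.86, 9.79 and 9.61 in WT, a difference of 0.19 (SE 0.18, limma adjusted p = 0.67). Isg15 read 8.96, 9.06 and 9.08 in Rptor-/- against 8.93, 8.94 and 8.70 in WT, a difference of 0.17 (SE 0.12, limma adjusted p = 0.50). For Irf9 and Isg15 the nearest Rptor-/- and WT arrays almost touched, and the Stat2 groups were further apart.

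Ifit3 read 6.85, 6.77 and 6.56 in Rptor-/- γδ T cells against 7.23, 7.20 and 7.02 in WT γδ T cells, a difference of -0.42 (SE 0.19, limma adjusted p = 0.29), opposite in sign to its neighbour Ifit1. Ifit3 has a close paralog, Ifit3b, and whether the probe set also reads that gene was not tested. Rsad2 differed by -0.019 (95% interval -0.31 to 0.27) with overlapping groups. Beside these values, 3 of 5 ISP marker genes fell in Rptor-/- γδ T cells, namely Cd8b1 (-1.72), Cd8a (-0.53) and the proliferation gene Mki67 (-0.74), and the mean of the 5 ranged from 7.46 to 7.77 on Rptor-/- and from 8.22 to 8.41 on WT γδ arrays. The mean of the 7 DN3a markers ranged from 7.65 to 7.94 on Rptor-/- and from 7.51 to 7.61 on WT γδ arrays (1 called, Dtx1, higher), that of 9 B cell genes from 6.29 to 6.41 on Rptor-/- and from 6.48 to 6.56 on WT, and that of 4 mature αβ T cell genes from 8.83 to 8.99 on Rptor-/- and from 9.01 to 9.13 on WT, with none of the B or αβ T cell genes called by limma (4 and 1 at an unadjusted p under 0.05). Fcer1g, an Fc receptor chain also present in innate-like lymphocytes, rose by 1.65. Their part in the member differences was not tested.

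The Irf7 call was lost without Rptor-/- replicate 2 (0.50) or 3 (0.52) or WT replicate 2 (0.59) or 3 (0.43), and Bst2 passed without WT replicate 1 (0.42). With the 12 DN3a and γδ arrays fitted alone the adjusted p of Irf7 was 0.061 at the same difference, with the 6 γδ arrays alone 0.10, and with quantile normalization across all arrays 0.052; Bst2 passed with median-centred arrays (0.38, adjusted p = 0.040), with quantile normalization (0.38, adjusted p = 0.037), with the dimmest 25% of genes left out (adjusted p = 0.043) and with limma's trended robust variance (adjusted p = 0.025).

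**Figure D2:**
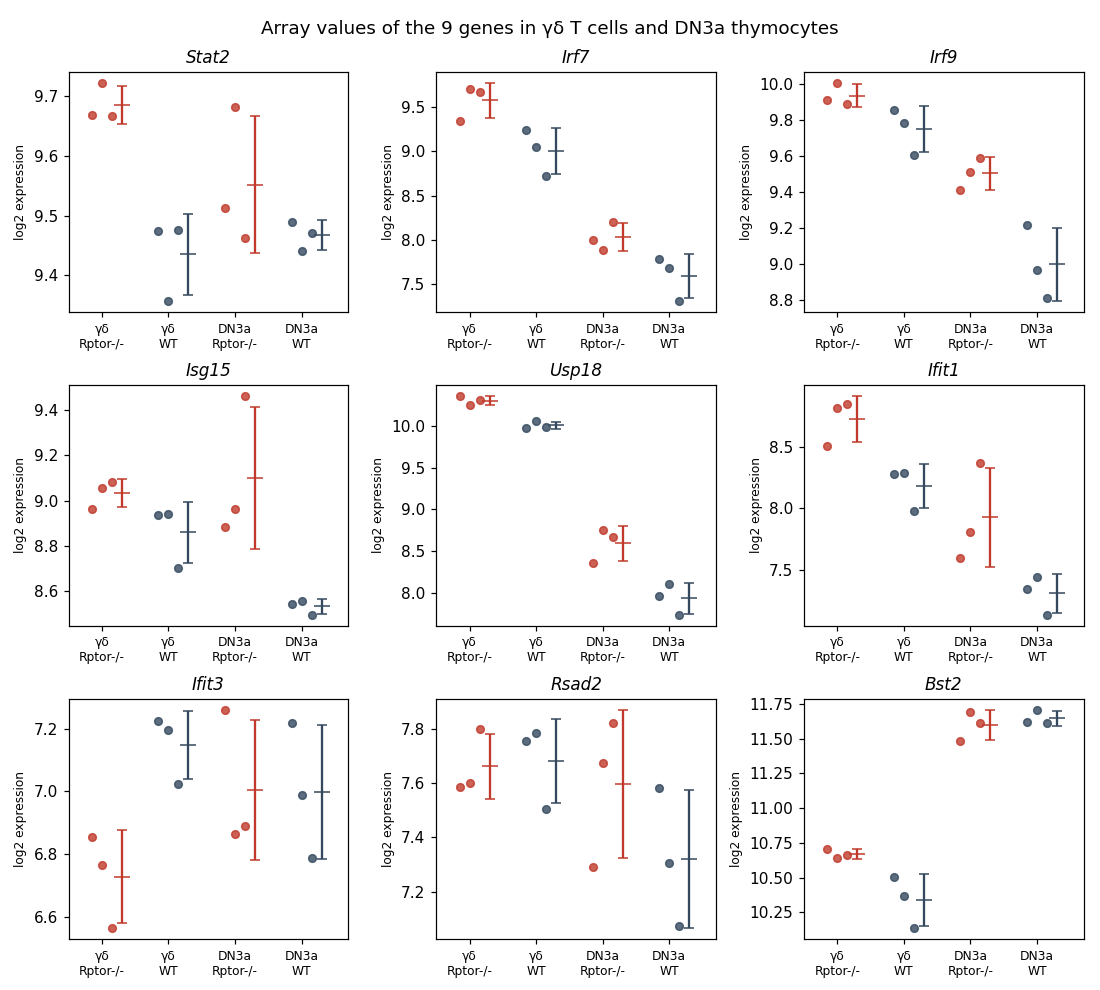
Log2 expression of the 9 genes on each γδ and DN3a array (points), with group mean and SD beside them; Rptor-/- is left of WT, γδ T cells left of DN3a cells, and each panel has its own vertical axis. Usp18 and Irf7 step down from γδ to DN3a cells, Bst2 does the reverse, and Ifit3 is the only panel in which Rptor-/- γδ T cells lie below WT γδ T cells without overlap.

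The differences between γδ and DN3a cells in the effect of genotype were tested as an interaction. By limma 0 of 9 members passed, against 0.6% of all genes called in either direction, and 2 had an unadjusted p under 0.05. These were Bst2, whose genotype difference was 0.38 higher in γδ than in DN3a cells (95% interval 0.11 to 0.66, limma adjusted p = 0.31), and Isg15, whose genotype difference was lower in γδ than in DN3a cells, at -0.39 (-0.74 to -0.047, limma adjusted p = 0.46). Genotype differences in ISP cells lie on another scale and were not tested against these.

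**Figure D3:**
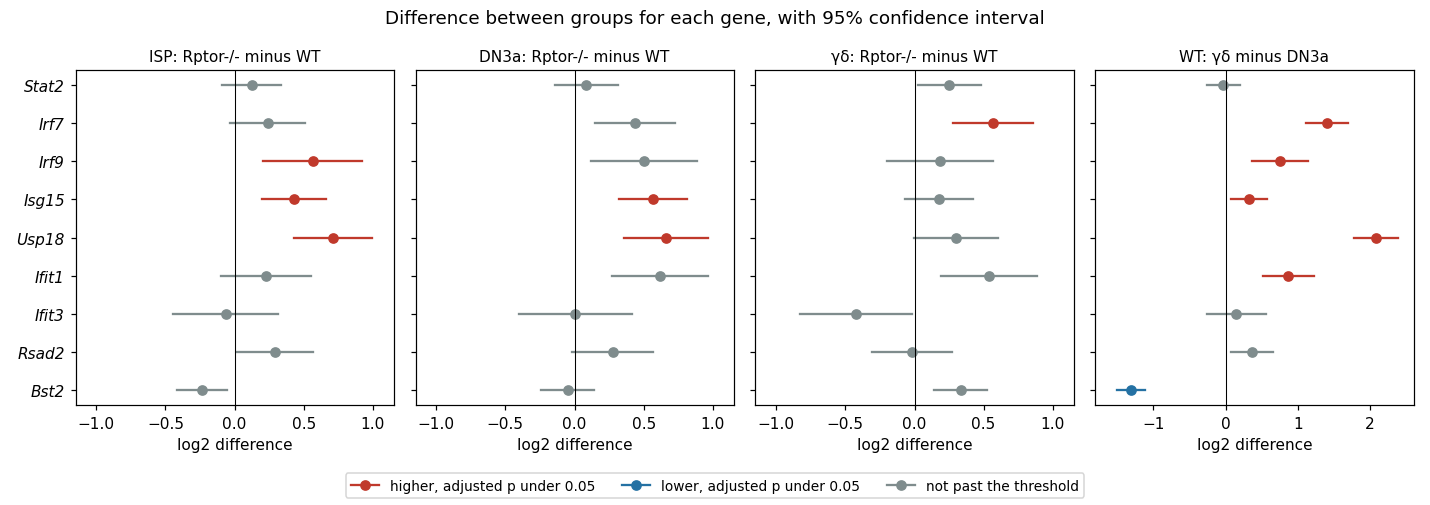
Log2 difference of each gene (points) with its 95% confidence interval from limma, for Rptor-/- minus WT in ISP, DN3a and γδ cells and for γδ minus DN3a in WT cells; the last panel has a wider horizontal axis. Usp18 and Isg15 pass in ISP and DN3a cells, Irf9 in ISP cells and Irf7 in γδ T cells, and the differences between WT populations reach 2.08 for Usp18 and -1.31 for Bst2.

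Between WT populations, Usp18 was 4.21-fold, Irf7 2.65-fold, Ifit1 1.83-fold, Irf9 1.68-fold and Isg15 1.25-fold higher in WT γδ T cells than in WT DN3a cells, and Bst2 was lower, at 0.40 of its DN3a level. Thus 5 of 9 genes were higher, against 12.7% of all genes, and 1 of 9 lower, against 12.3%. The same 6 genes had no overlap between populations (19.3% of all genes for γδ higher, 19.6% for γδ lower).

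From the array values given above, all WT γδ arrays read Usp18 between 9.98 and 10.06, against 7.74 to 8.11 on WT DN3a arrays, a difference of 2.08 (SE 0.15, limma adjusted p = 8.8e-10). Irf7 differed by 1.41 (SE 0.14, limma adjusted p = 1.3e-07), Ifit1 by 0.87 (SE 0.17, limma adjusted p = 4.2e-04) and Irf9 by 0.75 (SE 0.18, limma adjusted p = 0.0039). Bst2 averaged 10.34 ± 0.19 in WT γδ T cells and 11.65 ± 0.05 in WT DN3a cells (SD, n = 3 each), a difference of -1.31 (SE 0.092, limma adjusted p = 1.0e-09).

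Isg15 differed by 0.33 (SE 0.12, limma adjusted p = 0.048), a call lost without any of WT DN3a replicates 1 (0.33), 2 (0.34) or 3 (0.31) or WT γδ replicates 1 (0.29) or 2 (0.29), and with median-centred arrays (0.31, adjusted p = 0.086), with quantile normalization (0.32, adjusted p = 0.055) or with the 12 arrays fitted alone (adjusted p = 0.075). Rsad2 differed by 0.36 (SE 0.14, limma adjusted p = 0.067) and passed without WT DN3a replicate 1 (0.49) or WT γδ replicate 3 (0.45), but was 0.24 without WT DN3a replicate 3 (adjusted p = 0.32). Stat2 and Ifit3 differed by -0.032 and 0.15, each with an interval that spans 0. This comparison uses the WT arrays of the genotype comparisons in γδ and DN3a cells, so its values are not independent of theirs.

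As 1 value per array, the mean of the 9 genes relative to the WT DN3a mean was 0.68, 0.75 and 0.74 on Rptor-/- γδ arrays, 0.60, 0.56 and 0.37 on WT γδ arrays, 0.22, 0.34 and 0.48 on Rptor-/- DN3a arrays and 0.11, 0.046 and -0.15 on WT DN3a arrays. Rptor-/- stood above WT without overlap in both populations, and the lowest WT γδ array lay below the highest Rptor-/- DN3a array. Relative to the WT ISP mean it was 0.15, 0.28 and 0.32 on Rptor-/- ISP arrays and -0.083, -0.10, 0.048 and 0.14 on WT ISP arrays, where the lowest Rptor-/- and the highest WT array were nearly level.

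**Figure D4:**
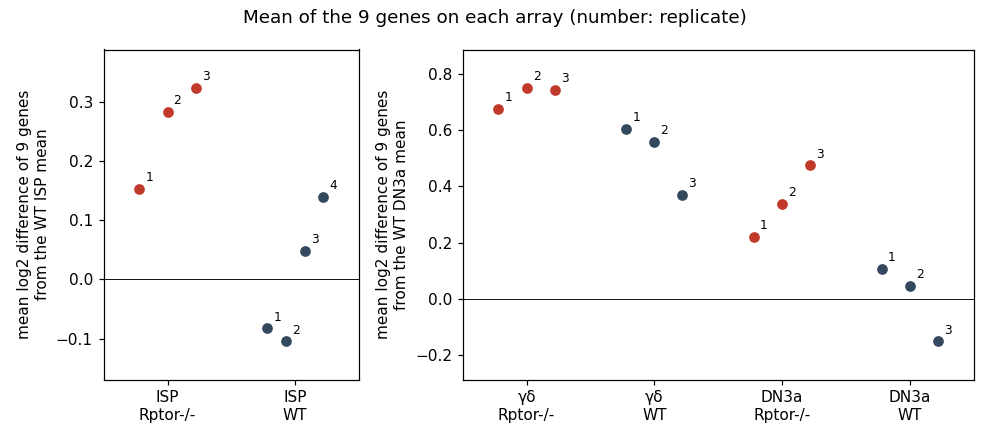
Mean log2 difference of the 9 genes on each array from the WT ISP mean (left) or the WT DN3a mean (right); 1 point per array, labelled with its replicate number, Rptor-/- left of WT and γδ left of DN3a. WT replicate 3 was the lowest of its group in both γδ (0.37) and DN3a cells (-0.15).

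Members did not vary alike. Over the 12 γδ and DN3a arrays, the correlation of a gene with the mean of the other 8 was 0.98 for Irf9, 0.96 for Ifit1 and 0.89 for Irf7, but 0.44 for Stat2, -0.34 for Ifit3 and -0.79 for Bst2. Once each group was centred on its own mean, it was 0.86 for Irf9, 0.85 for Rsad2, 0.80 for Irf7, 0.76 for Ifit1, 0.68 for Isg15, 0.55 for Bst2 and 0.49 for Usp18, but -0.005 for Ifit3 and -0.25 for Stat2. The order was different on the 7 ISP arrays centred likewise. There it was 0.58 for Ifit3, 0.54 for Isg15, 0.52 for Rsad2, 0.49 for Bst2, 0.42 for Stat2 and 0.40 for Usp18. For Ifit1, Irf7 and Irf9 it was 0.069, 0.059 and -0.24. These are descriptions over arrays that share groups and normalization. The 8 other genes with the highest correlation with the mean of all 9 over these 12 arrays were Lgals3bp (0.97), Smim19 (0.96), Trim30a (0.96), Setd3 (0.96), Zswim1 (0.95), Usf2 (0.95), Rab33b (0.95) and Gnl3l (0.95). Over the 7 ISP arrays the same 8 genes ran from -0.31 for Usf2 to 0.80 for Rab33b, with 0.77 for Trim30a, a gene of an interferon-inducible Trim cluster, and 0.41 for Lgals3bp, a secreted glycoprotein induced by interferon.

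The rest of the pathway was read from 7 lists with 89 measured genes. In Rptor-/- ISP cells 23 of them rose and 4 fell (5.87% and 6.57% of all genes), in Rptor-/- DN3a cells 5 rose and none fell (0.712% and 0.271%), in Rptor-/- γδ T cells 9 rose and none fell (1.77% and 1.28%), and in WT γδ against WT DN3a cells 33 were higher and 9 lower (12.7% and 12.3%). The median difference of the 89 genes was 0.072, 0.10, 0.11 and 0.14 in these comparisons, against -0.0039, 0.011, 0.0042 and -0.0041 over all genes.

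Of 10 measured interferon genes, the ligands of the pathway, Ifna4 (0.45) and Ifna1 (0.34) rose in Rptor-/- ISP cells, Ifng, the type II interferon gene, rose in Rptor-/- γδ T cells (0.54), 0 passed in DN3a cells by limma (0 at an unadjusted p under 0.05), and Ifna4 was higher in WT γδ than in WT DN3a cells (0.41). Interferon alpha genes are near copies of one another, so their signals cannot be assumed to be separate. Among 9 receptor and kinase genes, Ifngr1, a chain of the interferon gamma receptor, rose by 1.11 and Jak2, its kinase, by 0.65 in Rptor-/- ISP cells, Il10rb, a chain shared by the interferon lambda receptor, rose by 0.47 in Rptor-/- γδ T cells, and 0 were called in DN3a cells by limma (1 at an unadjusted p under 0.05). The genotype difference of Il10rb was higher in γδ than in DN3a cells by 0.85 (limma adjusted p = 0.034). In WT γδ against WT DN3a cells 7 of the 9 were higher, led by Il10rb (1.47), Ifngr2 (1.29) and Jak2 (0.70).

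Of 5 measured genes for other STATs and interferon regulatory factors, Irf2, a regulator that competes with activating IRFs, rose in Rptor-/- γδ T cells (0.35) and was higher in WT γδ than in WT DN3a cells (0.64), where Irf8 was higher as well (0.61). The next list held 8 genes for brakes on signalling, not all of them particular to interferon. Socs1, an inhibitor of JAK kinases, rose by 0.49 in Rptor-/- γδ T cells. Ubash3b, a phosphatase of receptor signalling, rose there by 0.40, and its listing does not mean that it restrains interferon signalling. In Rptor-/- ISP cells the SUMO ligase gene Pias1 rose by 0.29 and the phosphatase gene Ptpn2 fell by 0.21. In WT γδ against WT DN3a cells Ubash3b (2.64), the phosphatase gene Ptpn6 (0.57) and Ptpn2 (0.28) were higher. The genotype difference of Ubash3b was 0.67 higher in γδ than in DN3a cells (limma adjusted p = 0.036).

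The enzymes that attach ISG15, the counterpart of Usp18, rose in Rptor-/- ISP cells for 3 of 4 measured genes. Uba7, the activating enzyme, rose by 0.99, Herc6, the main ISG15 ligase in mice, by 0.49 and Trim25, a ligase that is itself modified, by 0.39, while Ube2l6, the conjugating enzyme, did not pass. By limma 0 of the 4 passed in Rptor-/- DN3a or γδ T cells (1 and 3 at an unadjusted p under 0.05), and Ube2l6 was lower in WT γδ than in WT DN3a cells, at -0.34. Of 11 sensing genes, Myd88, an adaptor of Toll-like receptors, rose by 0.39 in Rptor-/- DN3a cells and Ikbke, a kinase that activates IRF3 and IRF7, by 0.30 in Rptor-/- ISP cells. Ikbke (1.13), Sting1, the adaptor of DNA sensing (1.09), and Nod1 (0.91) led 6 that were higher in WT γδ than in WT DN3a cells.

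Of 42 other interferon-stimulated genes, 14 rose and 3 fell in Rptor-/- ISP cells. Samd9l, an antiviral growth suppressor (1.20), Ifi27 (1.03) and Trafd1 (0.54) had the smallest p among those that rose, and Epsti1 (-1.42), Ifitm3, which blocks virus entry (-0.69), and Parp12 (-0.32) were those that fell. In Rptor-/- DN3a cells 4 rose and none fell. They were Ifitm3 (0.88), Parp9 (0.46), Rtp4 (0.66) and Samd9l (0.47). In Rptor-/- γδ T cells 4 rose and none fell, among them Slfn5 (0.53), Parp14 (0.42) and Rnf213 (0.37). The genotype difference of Ifitm3 was lower in γδ than in DN3a cells, at -1.07 (limma adjusted p = 0.011). Between WT γδ and WT DN3a cells 14 were higher, led by Slfn5 (2.11), Cmpk2, a nucleotide kinase gene next to Rsad2 (1.34), and Sp100 (1.35), and 8 were lower, led by Ifitm2 (-2.87), Eif2ak2, the RNA-dependent kinase PKR (-0.92), and Parp12 (-0.75).

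**Figure D5:**
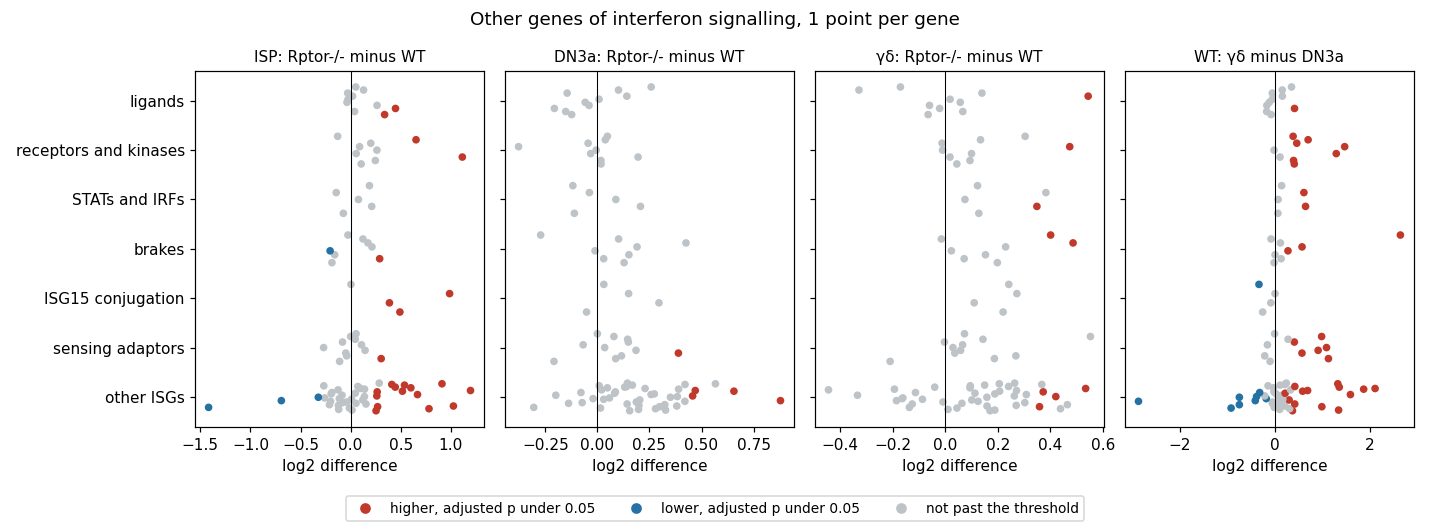
Log2 differences of the 89 other pathway genes by list, 1 point per gene, coloured where limma's adjusted p was below 0.05; horizontal axes differ between panels. In DN3a and γδ T cells all 5 and 9 coloured points for genotype lie to the right of 0, and ISP cells show 23 to the right and 4 to the left.

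Markers of other cells that the sorts could hold were read beside these results. The mean of 10 plasmacytoid dendritic cell genes ranged from 6.67 to 6.72 on Rptor-/- and from 6.65 to 6.72 on WT DN3a arrays, from 5.92 to 6.04 on Rptor-/- and from 6.03 to 6.06 on WT γδ arrays, and from 4.81 to 5.01 on Rptor-/- and from 4.93 to 5.19 on WT ISP arrays. None of the 10 was called for genotype in DN3a or γδ T cells by limma (1 and 2 at an unadjusted p under 0.05), and in ISP cells Ly6d rose and Cox6a2 fell. The pDC receptor gene Siglech averaged 5.62 in WT γδ T cells and 5.80 in WT DN3a cells, while Spib and Ly6d, which early thymocytes also express, averaged 4.65 and 7.32 in WT γδ T cells, against 8.08 and 11.5 in WT DN3a cells, and Tcf4 was also lower, at -0.40. Pacsin1 (1.41) and Ccdc162 (0.44) were higher in WT γδ T cells, the other 5 of the list were not called, and its median difference was -0.09. The mean of 13 myeloid genes ranged from 5.69 to 5.80 on Rptor-/- and from 5.75 to 5.83 on WT DN3a arrays, with 1 gene called (Lyz2, higher by 1.04), and from 5.83 to 6.06 on Rptor-/- and from 5.74 to 5.97 on WT γδ arrays, with 1 gene called (Fcer1g). On ISP arrays it ranged from 3.59 to 3.63 in Rptor-/- and from 3.54 to 3.71 in WT, with Cd68 called lower. The part of such cells in the member differences was not tested. Of the genes of the other lists, for conventional dendritic, B, erythroid, NK, mature αβ T and stromal cells, those called for genotype were Batf3, Cd6 and Pecam1 (higher) and Ighm (lower) in ISP cells, Ighm (lower) and Epcam (higher) in DN3a cells, and Batf3 (higher) and Klre1 (lower) in γδ T cells. Of 7 γδ markers, Cd27 rose and Il7r fell in Rptor-/- ISP cells, Maf and Sox13 rose in Rptor-/- DN3a cells and Zbtb16 rose in Rptor-/- γδ T cells. In DN3a cells the mean of these 7 ranged from 8.15 to 8.24 on Rptor-/- and from 8.07 to 8.09 on WT arrays. There the mean of 5 ISP markers ranged from 7.19 to 7.35 on Rptor-/- and from 7.45 to 7.80 on WT arrays. That of 8 conventional dendritic cell genes ranged from 6.21 to 6.37 on Rptor-/- and from 6.37 to 6.40 on WT DN3a arrays. On ISP arrays the mean of 6 NK cell genes was 3.40 to 3.48 in Rptor-/- and 3.35 to 3.38 in WT. Between WT populations, 5 of these 6 were higher in γδ T cells than in DN3a cells and 0 lower (median difference 0.66). For mature αβ T cell genes it was 3 of 4 and 0 (median 2.17), against 12.7% and 12.3% of all genes. The other lists had fewer calls there, at 2 higher and 2 lower of 13 myeloid and 2 and 1 of 9 B cell genes. Their part was not tested. Of 4 sex-linked genes, Xist was higher in Rptor-/- ISP cells (0.66), and the mean of the 4 ranged there from 4.68 to 4.81, against 4.50 to 4.57 in WT ISP cells. The Y-linked genes of the list, Eif2s3y, Kdm5d and Uty, were not called there. They averaged 2.17, 2.37 and 2.38 on WT ISP arrays, against 11.19 for Xist. Because the mean joins Xist with Y-linked genes, it does not measure the sex of the cells. None of the 4 was called for genotype in DN3a or γδ T cells by limma (0 and 1 at an unadjusted p under 0.05).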

How the data were processed

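Gene expression was measured on 19 arrays of sorted mouse thymocytes, grouped by sample title. The deposited values are log2 expression values per probe set, made with RMA in Partek 6.6 per the submitters' processing notes; the sources do not say how the arrays were grouped for this, and array medians fell into 2 sets. The platform annotation gave a single gene symbol to 23521 of 41345 probe sets, and the 1814 with several symbols and the 16010 with none were left out. Symbols were matched through Entrez IDs for 23328 probe sets to a RefSeq table (GRCm38.p6), and the probe set with the highest mean over all arrays was kept for 1082 genes with more than 1, giving 22180 genes. Differences were tested with limma 3.58.1 (R 4.3.3) in 1 model of 6 group means, with Benjamini-Hochberg adjustment over all genes and a threshold of 0.05, with no filter on dim genes in the main analysis. Alternatives were fits on fewer arrays, median centring, quantile normalization, a filter on dim genes, the mean over probe sets, a trended robust variance, a replicate block and leaving out each array.

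On simulated data of 22180 genes, true log2 differences of 0.5 were called for 70% of changed genes in ISP, 62% in DN3a and 52% in γδ T cells. In each simulation 100 genes were changed by 0.5 and 100 by 1. Noise was normal and independent, with 1 SD per gene for all groups. The arrays differ from this in the number of genes called and in spread between groups, so these shares need not hold for the real tests. Replicate numbers were not used as pairs in the main model. Correlations of same-numbered arrays' deviations ran from -0.10 to 0.24 across the genotype comparisons. In DN3a cells they were 0.24, 0.013 and 0.17, against -0.25 to 0.11 for arrays of different number. In γδ T cells they were -0.10 to -0.003, against -0.10 to 0.12, and in ISP cells -0.013 to 0.099, against -0.068 to 0.06. Between γδ and DN3a arrays of the same genotype they were 0.026 to 0.26, against -0.21 to 0.11. Pairing by number was therefore not settled. The 9 genes, the 7 pathway lists and the marker lists were chosen with earlier results of these data known. Named genes were the 9, Rptor, up to 3 genes per pathway list, comparison and direction with the smallest p among those called, and the 8 most correlated genes, passing over predicted, clone and microRNA genes. An exception was the list of other interferon-stimulated genes in DN3a cells, where all 4 that rose were named. Marker genes and lists were named to check labels. Figures used matplotlib 3.10.9.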

Additional observations from a re-analysis of the deposited data

Results flagged for a closer look

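Usp18 on the WT ISP arrays had 1 array apart from the others: replicate 1 read 5.56, against 5.98 to 6.04 on the other 3, and this gap was 0.88 of the group's whole range. The limit set for such a gap is passed by chance in about 1 in 20 groups, and 9 genes were examined. Without that array the Usp18 difference in ISP cells was 0.60 and stayed past the threshold (limma adjusted p = 0.0044).

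Bst2 ran in opposite directions in 2 populations. Every Rptor-/- ISP array lay below every WT ISP array (difference -0.23), and every Rptor-/- γδ array lay above every WT γδ array (0.33). Neither passed limma's threshold, and the difference between the populations was not tested, since their arrays lie on separate scales.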

How the results depend on the processing

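The number of genes called in all was 2759 in ISP cells but 1313 with the 7 ISP arrays fitted alone, 218 in DN3a cells but 144 with the 6 DN3a arrays alone, and 677 in γδ T cells but 345 with the 6 γδ arrays alone. With 1 array left out, these counts ran from 1899 to 2671, 124 to 254 and 333 to 782, that between WT populations from 4644 to 5232 and that of the interaction from 76 to 161, against 133. The share of called genes that were higher was 72.5% in DN3a cells but 54.9% with quantile normalization, and 58.1% in γδ T cells but 74.9% with each array centred on its median and 48.3% with quantile normalization; the interaction's share was 65.4% and 75.4% when centred. Members called in ISP cells, 3 in the main model, were 1 with the 7 ISP arrays alone and 1 to 3 with an array left out. In DN3a cells the 2 were 0 with the 6 arrays alone and 0 to 3 with an array left out. In γδ T cells the 1 was 0 with the 12 or the 6 arrays fitted alone and 0 with the replicate block, 2 with centring, with the dimmest 25% of genes left out or with trended robust variance, and 0 to 2 with an array left out. Between WT populations it was 5 to 7 with an array left out. In ISP cells Bst2 passed with trended robust variance (adjusted p = 0.047). The replicate block was tried although pairing by number was not settled. With it the limma adjusted p was 0.084 for Irf7 in γδ T cells, and Rsad2 passed between WT populations (limma adjusted p = 0.022). Genes called with the block were 2629 in ISP, 212 in DN3a and 691 in γδ T cells, 5556 between WT populations and 110 in the interaction. Among members, signs turned for Ifit3 in DN3a cells with quantile normalization (-0.012), in ISP cells with the block (0.024), and Rsad2 in γδ T cells with centring (0.022). With an array left out the ranges were -0.12 to 0.11 for Ifit3 and -0.10 to 0.0066 for Bst2 in DN3a cells, -0.24 to 0.10 for Ifit3 in ISP cells, -0.11 to 0.033 for Rsad2 in γδ T cells, -0.052 to 0.0070 for Stat2 between WT populations, and -0.24 to 0.15 for Ifit1 and -0.0093 to 0.27 for Irf7 in the interaction. Fits on fewer arrays have fewer degrees of freedom; otherwise the cause was not tested.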

Other observations

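Ifit2 and Ifit3b, of the same gene family as Ifit1 and Ifit3, and Ifnb1 are named here after their values were seen. Ifit2 differed by 0.053 in Rptor-/- ISP, -0.14 in Rptor-/- DN3a and 0.063 in Rptor-/- γδ T cells relative to WT, and Ifit3b by -0.080, -0.073 and 0.30, and none of these passed (lowest limma adjusted p = 0.66). Ifnb1, the interferon beta gene, averaged 4.17 in Rptor-/- and 4.23 in WT DN3a cells, and 4.17 in Rptor-/- and 4.12 in WT γδ T cells (limma adjusted p = 0.93 and 0.84). These levels lay far below the array medians of 6.03 to 6.13. They were near those of the Y-linked gene Kdm5d, 4.02 in WT DN3a and 3.93 in WT γδ T cells. At so low a signal the tests do not show whether Ifnb1 changed.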
